A study of Drosophila melanogaster with 9 samples.

Results

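Cultured Drosophila S2 cells exposed to double-stranded RNA (dsRNA) that matches LacZ, a gene of bacteria, were compared with S2 cells left without dsRNA. The comparison takes the 3 arrays titled LacZ treated and the 3 titled Untreated, 6 of the 9 samples in all, chosen by their titles. S2 cells are a line with features of plasmatocytes, the phagocytic blood cells of the fly. The LacZ dsRNA group was exposed to dsRNA directed at beta-galactosidase, the product of LacZ, for 72 h and is called mock-treated in the labels. The untreated group received no dsRNA. The remaining 3 arrays come from cells treated for the same time with dsRNA against the subunit genes NELF-B and NELF-E of the negative elongation factor, and they are given beside the comparison as a second dsRNA-treated group. All groups were S2 cells in medium with 10% serum, and each sample was hybridized to an Affymetrix Drosophila Genome 2.0 array, on which a gene is read by 1 or more probe sets. Whether the arrays of a group stand for separate cultures is not stated in the labels. The p-values therefore reflect only how far these samples scatter, and that scatter may be technical. They give no other mock treatment, so the dsRNA itself cannot be told apart from the handling that went with it.

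Long dsRNA is taken up by S2 cells from the medium, through scavenger receptors and endocytosis. In the cytoplasm Dicer-2 cuts it into short interfering RNAs, which its partner R2D2 helps to load into an Argonaute complex that cleaves matching transcripts. LacZ dsRNA has no target among fly genes, and it therefore serves as the usual control for the procedure. In flies the same RNA interference machinery defends against viruses, and infections by bacteria and fungi are met by antimicrobial peptides under the Imd and Toll pathways.

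Few differences between LacZ dsRNA and untreated cells passed in the main fit, and other settings, given below, let 1 to 518 probe sets pass. Of 12974 probe sets tested with limma, 7 changed at an adjusted p under 0.05 (Benjamini-Hochberg over all probe sets), which is 0.054%. CG32576, SpdS, stc, Akt, schlank and CG5913 rose, and Sgt fell. RNA came from whole cultures, so a change within each cell and a change in the mix of cells cannot be told apart. Of the 7, CG32576, SpdS and stc changed by 1.5-fold or more. In the same model 6.16% of 12973 probe sets passed in NELF dsRNA against untreated cells and 4.56% of 12975 in NELF dsRNA against LacZ dsRNA. Those comparisons share arrays with this one and are not independent of it.

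CG32576, which has no name beyond its annotation number here, showed the most significant change. Its log2 intensity was 5.68, 5.74 and 5.58 on untreated arrays 1, 2 and 3 and 7.20, 7.20 and 7.10 on LacZ dsRNA arrays 1, 2 and 3. The groups lay far apart relative to the spread within each. The group means were 5.67 ± 0.08 (SD, n = 3) and 7.17 ± 0.06 (SD, n = 3), a 2.83-fold rise (log2 difference 1.5, SE 0.13, limma adjusted p = 8.98e-05). After NELF dsRNA the gene read 7.22, 7.42 and 7.21, close to LacZ dsRNA (log2 difference between the dsRNA groups 0.12, limma adjusted p = 0.747).

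SpdS encodes spermidine synthase, which makes the polyamine spermidine from putrescine. Untreated arrays gave 6.46, 6.17 and 5.97, and LacZ dsRNA arrays gave 7.35, 6.96 and 7.01. All LacZ dsRNA arrays were higher than all untreated arrays, with LacZ dsRNA array 1 the highest and untreated array 1 the highest of its group. SpdS rose 1.88-fold (log2 difference 0.91, SE 0.15, limma adjusted p = 0.0419). NELF dsRNA arrays read 7.41, 7.27 and 7.36. This was the least stable of the 7 calls: it passed in 1 of 9 repeats that left out a single array, although its difference stayed above 0 in all of them.

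stc encodes Shuttle craft, an NF-X1-type zinc-finger protein. It read 8.98, 8.87 and 9.19 in untreated cells and 9.64, 9.66 and 9.83 after LacZ dsRNA, without overlap. The rise was 1.63-fold (log2 difference 0.70, SE 0.09, limma adjusted p = 0.00467). In NELF dsRNA cells stc read 9.69, 9.59 and 9.66, again above all untreated arrays.

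Akt encodes the protein kinase that relays insulin receptor signals to growth and metabolism. Its untreated values were 9.20, 9.30 and 9.22, and its LacZ dsRNA values 9.83, 9.80 and 9.81 lay above all of them. Akt rose 1.49-fold (log2 difference 0.57, SE 0.09, limma adjusted p = 0.0226). NELF dsRNA arrays read 9.86, 9.48 and 9.54, which is 0.38 above untreated on the log2 scale (limma adjusted p = 0.0139).

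schlank encodes the fly ceramide synthase, an enzyme of sphingolipid synthesis that also affects fat storage. It read 9.59, 9.56 and 9.59 in untreated cells and 10.04, 10.15 and 10.16 after LacZ dsRNA. The untreated arrays differed little among themselves, and all LacZ dsRNA arrays lay above them. schlank rose 1.45-fold (log2 difference 0.53, SE 0.07, limma adjusted p = 0.009). In NELF dsRNA cells it read 9.76, 9.76 and 9.55, a difference from untreated of 0.11 that did not pass (limma adjusted p = 0.49) and a difference from LacZ dsRNA of -0.43 that did (limma adjusted p = 0.00159).

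CG5913, also known here only by number, read 8.95, 9.0 and 9.07 in untreated cells and 9.48, 9.47 and 9.54 after LacZ dsRNA. It rose 1.41-fold (log2 difference 0.49, SE 0.08, limma adjusted p = 0.0226). NELF dsRNA arrays lay between the groups at 9.30, 9.09 and 9.30.

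Sgt, the single fall, encodes a small glutamine-rich co-chaperone with tetratricopeptide repeats that works with Hsp70. Untreated arrays gave 10.69, 10.79 and 10.72, LacZ dsRNA arrays 10.25, 10.41 and 10.33 and NELF dsRNA arrays 10.67, 10.74 and 10.77. LacZ dsRNA arrays were below both other groups, which overlapped each other. Sgt fell by 0.41 on the log2 scale against untreated cells (SE 0.06, limma adjusted p = 0.0226), and NELF dsRNA exceeded LacZ dsRNA by 0.39 (limma adjusted p = 9.19e-04). Each of the 7 genes is read by a single tested probe set.

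**Figure D1:**
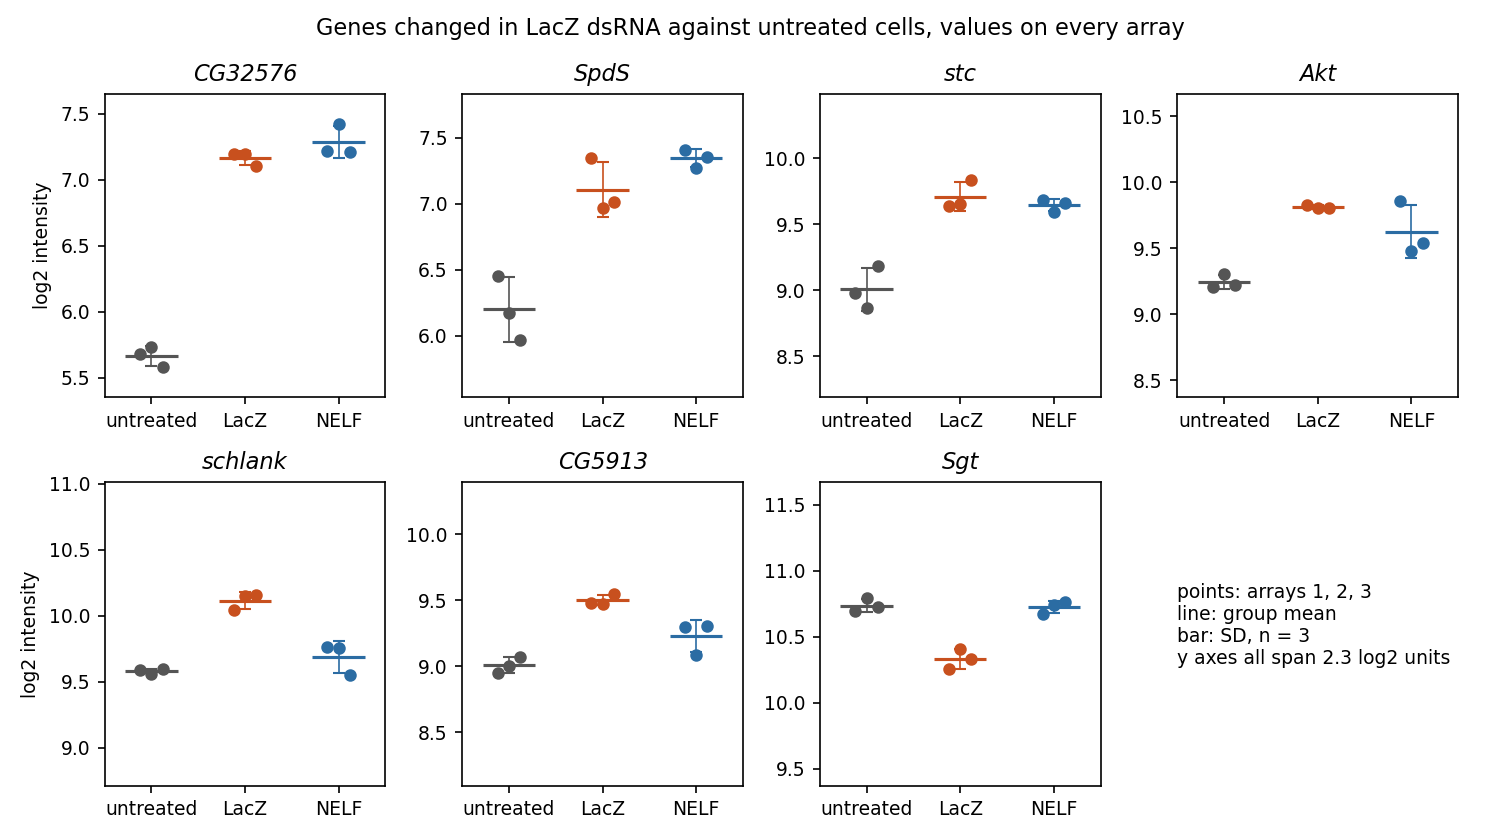
Log2 intensity (y axis) of the 7 genes that passed in LacZ dsRNA against untreated cells, in 3 groups of 3 arrays (x axis), with points for arrays, lines for means and bars for SD. In each panel the LacZ dsRNA points lie clear of the untreated points; for schlank and Sgt the NELF dsRNA points lie nearer to the untreated ones.

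A further 18 probe sets, 14 higher and 4 lower, had an adjusted p between 0.060 and 0.085, and none of them passed. The genes among them are named after their values were seen. Among those with a named gene the largest difference was that of ppk29, a subunit gene of the DEG/ENaC sodium channel family, at 3.87, 3.69 and 4.27 in untreated and 6.21, 5.18 and 5.50 in LacZ dsRNA cells (log2 difference 1.69, SE 0.31, limma adjusted p = 0.0654). Untreated array 2 lay below the detection limit of 3.77, so this gene was dim where it was low. Roc1a, the RING subunit of cullin ubiquitin ligases, read 7.48, 7.54 and 7.38 and 8.63, 8.62 and 8.41 (log2 difference 1.09, limma adjusted p = 0.0786). Its groups did not overlap.

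Differences of the other genes were smaller. upSET, a SET-domain chromatin protein, differed by 0.61. escl, a Polycomb group gene related to esc, differed by 0.48, and Rcc1, the chromatin-bound exchange factor for the GTPase Ran, by 0.44 on the log2 scale (limma adjusted p = 0.0642, 0.0743 and 0.0602). tant, which encodes a chromatin-associated protein, was lower by the log2 difference -0.47 (limma adjusted p = 0.0654). Ald1, the glycolytic enzyme aldolase, read 10.46, 10.66 and 10.71 in untreated and 10.97, 11.14 and 11.17 in LacZ dsRNA cells (limma adjusted p = 0.0602), while its second, dimmer probe set differed by 0.06. The differences of Usp10, a deubiquitinase, Sulf1, a heparan sulfate sulfatase, lbk, a membrane protein with leucine-rich repeats, and the noncoding RNA lncRNA:CR32368 ran from 0.37 for lbk to 0.47 for lncRNA:CR32368. l(1)G0196 differed by 0.51 in its brightest probe set, while its 3 other probe sets above the detection limit differed by -0.31, -0.06 and -0.03 and the last, below the limit, by 1.73. On the lower side were Pxn, described with the matrix genes, and Karl, a lipocalin, with a log2 difference of -0.32.

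**Figure D2:**
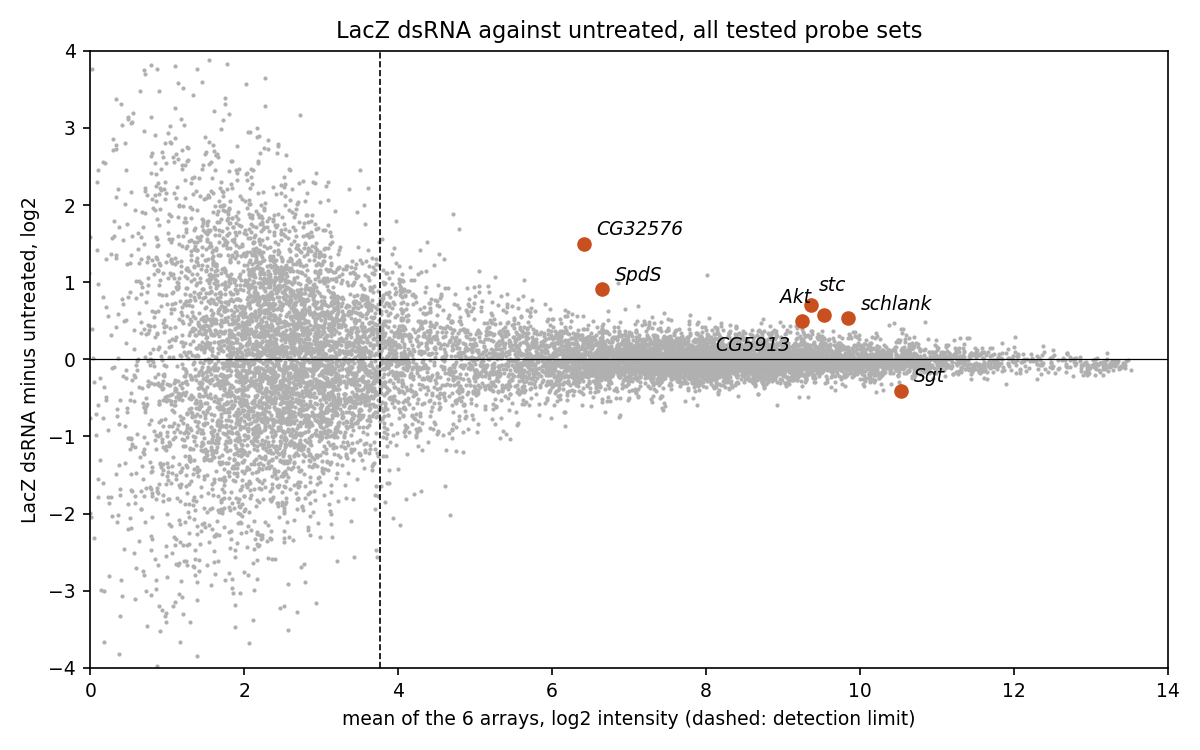
Log2 difference between LacZ dsRNA and untreated cells (y axis) against the mean log2 intensity of the 6 arrays (x axis) for 12974 probe sets, with the 7 that passed in orange and named and the detection limit dashed. Differences fan out below the limit of 3.77 and narrow above it, where the 7 named probe sets lie; 86 dim points fall outside the axes.

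The intervals show how precisely single differences were measured. They are not adjusted for the number of probe sets, so they do not give the size of change needed to pass. A probe set counts as above the detection limit where its mean in either group exceeded 3.77, the 95th percentile of the control probe sets. Of 8061 such probe sets, 76.1% differed by under 0.25 and 90.9% by under 0.5 on the log2 scale. Their median 95% interval reached 0.25 to either side of the difference. The smallest difference that passed was 0.41, for Sgt. Larger differences could also miss the threshold, such as 1.09 for Roc1a (limma adjusted p = 0.0786). Of 243 probe sets differing by at least 1 on the log2 scale, 226 had a group mean below the limit. At an unadjusted p under 0.05 there were 1355 probe sets, or 10.4% of those tested, 688 higher and 667 lower. With no difference at any probe set, 5% would be expected. The arrays of the groups did not overlap for 1820 of the 9933 probe sets measured on all 6 arrays (18.3%).

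Per array, 8010 to 8059 probe sets exceeded the limit, and all but 1 of the 6 arrays measured between 14144 and 14196 probe sets. LacZ dsRNA array 1 measured 13935. Correlation coefficients over shared probe sets were 0.962 to 0.966 among untreated arrays, 0.957 to 0.971 among LacZ dsRNA arrays and 0.952 to 0.967 between the groups. Plasmatocyte markers were mostly present, with 15 of 17 tested genes above the limit, among them the GATA factor gene srp and the scavenger receptor gene crq, while NimC1 was below it on all 6 arrays and Sr-CI on all but 1. Of 5 neuron, 1 muscle, 2 fat body and 3 epithelial markers tested, 1, 0, 0 and 1 were above the limit. Of 9 crystal cell and lamellocyte markers 7 were above it, and of 7 germline and ovarian soma markers 4. None of the markers of these other cell types had a limma p under 0.05, adjusted or not, between the groups. NELF-B and Nelf-E, the targets of the other dsRNA, did not pass in LacZ dsRNA against untreated cells (log2 differences 0.26 and -0.11, limma adjusted p = 0.581 and 0.92).

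Gene groups were described by 47 lists holding 858 distinct genes tested. Beside the adjusted test, the counts at an unadjusted limma p under 0.05 are given for the lists described. Over all 9134 genes tested that count is 11%, with 5.45% higher and 5.59% lower. The median log2 difference over all genes is -0.02, and 47.0% of them were higher by sign. Over the list genes it is 118, or 13.8%, with 55 higher and 63 lower. Akt and schlank were the only list genes that passed at the adjusted threshold, so 45 lists held no call.

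Genes of the RNA interference machinery held no call. Fmr1 and gw passed in the fit with array weights, where 339 of 12974 probe sets passed and LacZ dsRNA array 2 weighed 4.12. Members of many other lists passed there too, among them Toll, lipid and cell cycle genes. Of 18 RNA interference genes tested, 4 had an unadjusted p under 0.05, all higher, against 5.45% of all genes. The median difference of the list was 0.02. Dcr-2, the Dicer that cuts long dsRNA, read 8.21, 8.05 and 8.39 in untreated and 8.49, 8.48 and 8.67 in LacZ dsRNA cells. These arrays did not overlap, by a gap smaller than the spread within either group (log2 difference 0.33, SE 0.10, limma adjusted p = 0.245). NELF dsRNA arrays, although also treated with dsRNA, read 8.25, 8.13 and 8.29, inside the untreated range. gw, which encodes the GW182 protein of microRNA silencing, read 9.51, 9.53 and 9.36 and then 9.64, 9.67 and 9.82 (log2 difference 0.25, limma adjusted p = 0.229). In NELF dsRNA cells gw differed from untreated by 0.34 (limma adjusted p = 0.00896).

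Fmr1, an RNA-binding translational regulator found with RNA interference proteins, differed by 0.29 (limma adjusted p = 0.169) in its brighter probe set. Its dimmer probe set went the other way, at -0.52 (limma adjusted p = 0.359), so the 2 disagree. The fourth was piwi, a germline Argonaute, at 3.73 in untreated cells, below the detection limit, and 4.95 after LacZ dsRNA. The dsRNA-binding partners r2d2 and loqs differed by 0.15 and 0.02, and Hen1, which methylates short interfering RNAs, by 0.01. The microRNA processing genes drosha and pasha differed by 0.05 and -0.18. Tudor-SN and vig, components of the silencing complex, differed by -0.02 and -0.03.

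Antiviral genes likewise held no call among 8 tested, with 1 at an unadjusted limma p under 0.05 and a median difference of 0.10. That median was 0.01 without LacZ dsRNA array 1 and 0.17 without array 3. pst, which restricts several RNA viruses in flies, read 8.13, 8.42 and 8.36 and 8.59, 8.79 and 8.62 (log2 difference 0.36, limma adjusted p = 0.408), without overlap. Sting, the sensor adaptor of the cyclic dinucleotide pathway, differed by -0.10, and Nazo, an antiviral gene induced through it, by 0.14 with overlapping arrays. vir-1, a marker of viral infection, differed by 0.07 (95% interval -0.11 to 0.26), and the cyclic dinucleotide synthase gene cGlr2 by 0.12.

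Genes of the uptake route held no call. None of 15 tested uptake and endocytosis genes had a limma p under 0.05, adjusted or not, and their median was -0.06. The clathrin heavy chain gene Chc differed by 0.05, the adaptor genes AP-2alpha, AP-2mu and AP-2sigma by 0.08, -0.18 and -0.14, and the scavenger receptor gene eater by -0.25. Heat shock genes gave no p under 0.05 among 10 tested either. The inducible genes Hsp26, Hsp27 and Hsp68 differed by 0.12, -0.10 and 0.06, the constitutive Hsc70-4 by 0.03, and Hsf, their transcription factor, by 0.16.

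Antimicrobial peptide genes were the list with the lowest median among those with at least 5 detected members, with all arrays used. No member passed in the main fit. CecB, AttD and Mtk did in the fit with array weights, as did 339 of all 12974 probe sets. Of 12 tested, 4 had an unadjusted limma p under 0.05, all lower, against 5.59% of all genes, and the median was -0.23. CecB, a cecropin, read 7.66, 7.36 and 7.64 in untreated and 7.33, 7.02 and 7.08 in LacZ dsRNA cells (log2 difference -0.41, SE 0.14, limma adjusted p = 0.295). Untreated array 2 and LacZ dsRNA array 1 came close to each other, and no array crossed into the other group. AttD, an attacin, read 8.27, 8.37 and 8.45 and 8.37, 7.96 and 7.76, and Mtk, the antifungal peptide metchnikowin, read 9.23, 9.16 and 9.29 and 9.20, 8.92 and 8.92. In both of these LacZ dsRNA array 1 lay inside the untreated range and arrays 2 and 3 below it.

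The list members above the detection limit show the same split. Set against the untreated means, the median of these 7 was 0.00 on LacZ dsRNA array 1, -0.31 on array 2 and -0.47 on array 3. Over all members tested, dim ones included, the median difference was -0.42 without array 1, -0.13 without array 2 and -0.07 without array 3. Without array 3 several lists lay lower, among them phagocytosis receptors (-0.27) and cytochrome P450 genes (-0.12). In the median of the 7 antimicrobial genes above the limit, the untreated arrays lay between -0.05 and 0.06 and the NELF dsRNA arrays between -0.87 and -0.71. CecB in NELF dsRNA cells read 6.11, 5.89 and 6.08, a log2 difference from LacZ dsRNA of -1.12 (limma adjusted p = 8.93e-05). The best-known Toll target Drs differed by 0.08 between LacZ dsRNA and untreated cells, with a 95% interval from -0.33 to 0.48.

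**Figure D3:**
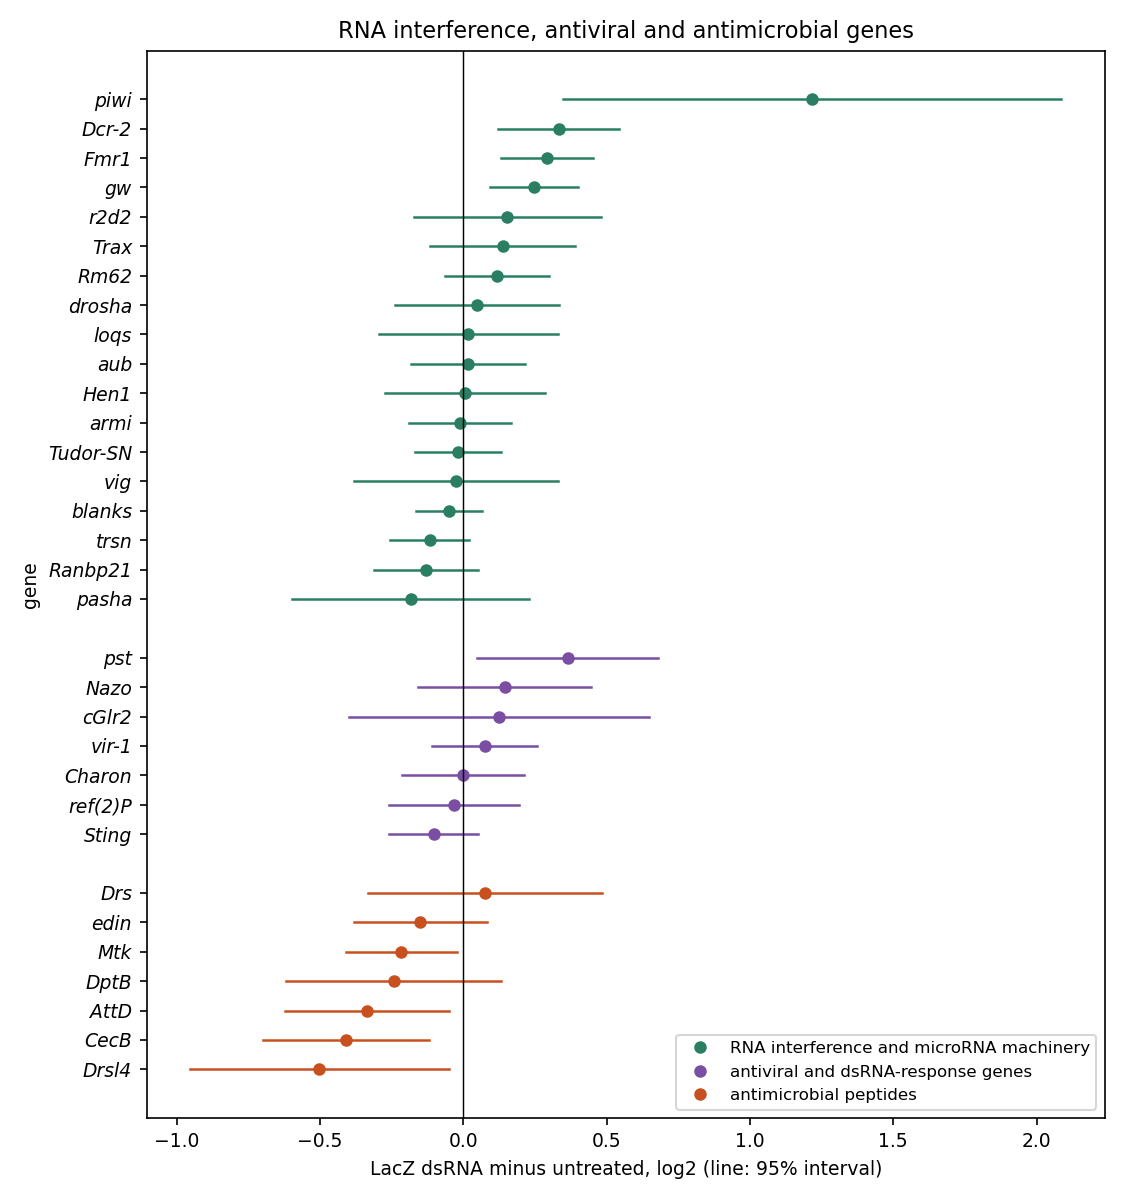
Log2 difference between LacZ dsRNA and untreated cells with its 95% interval (x axis) for the genes above the detection limit in 3 lists (y axis): RNA interference machinery, antiviral genes and antimicrobial peptides. Dcr-2, gw, Fmr1, piwi and pst have intervals above 0 and CecB, AttD, Mtk and Drsl4 below it; none passed after adjustment.

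Of the pathways that control these peptides, the Imd list of 17 genes had a median of -0.02 and 1 gene with an unadjusted p under 0.05. That gene, akirin, a nuclear cofactor of the NF-kappaB protein Relish, read 10.43, 10.50 and 10.44 and 10.93, 10.65 and 10.59 (log2 difference 0.27, limma adjusted p = 0.341). pirk, an inhibitor of the pathway, differed by -0.24 with overlapping arrays. Among 13 Toll genes 3 were lower and 1 higher at that threshold, and the median was -0.04. grass, a serine protease upstream of Toll, differed by -0.29, and GNBP3, which recognizes fungal glucans, by -0.36, both without overlap (limma adjusted p = 0.245 and 0.246). Pli, the Pellino ubiquitin ligase, differed by 0.32 and Myd88, the adaptor, by -0.35. The Toll median changed sign without LacZ dsRNA array 1, to 0.04.

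Genes of insulin and TOR signalling had a median of 0.13 over 15 tested, and 11 of them were above 0. Akt rose as given above, 1 call against 0.054% of all probe sets. Tsc1, which with gig restrains TOR, read 8.03, 7.87 and 7.84 and 8.58, 8.23 and 8.19 (log2 difference 0.42, limma adjusted p = 0.209). REPTOR-BP, the partner of a transcription factor that TOR holds inactive, differed by 0.20, and REPTOR itself by 0.15. The receptor gene InR differed by 0.16, the kinase genes Pdk1 and S6k by 0.13 and 0.06, and foxo by -0.11. Of these Tsc1 and REPTOR-BP had an unadjusted p under 0.05, and their arrays did not overlap.

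Among 26 lipid and sterol genes schlank rose, and 6 genes in all had an unadjusted p under 0.05, every one higher, with a list median of 0.04. The other 5 did not pass after adjustment. AcCoAS, which activates acetate, differed by 0.28, Acsl, which activates long-chain fatty acids, by 0.26, the desaturase gene Desat1 by 0.25, fatty acid synthase FASN1 by 0.20 and SREBP, the transcription factor for this pathway in flies, by 0.18. Their limma adjusted p ran from 0.246 for AcCoAS to 0.325 for SREBP. AcCoAS read 10.10, 10.06 and 10.01 in untreated and 10.21, 10.26 and 10.53 in LacZ dsRNA cells, with array 3 the highest, and Acsl read 8.74, 8.73 and 8.70 and 8.84, 9.0 and 9.12, also highest on array 3. Over the 24 members above the detection limit, the median on LacZ dsRNA arrays 1, 2 and 3 was -0.06, 0.07 and 0.21. On the other side the triglyceride synthesis gene mdy differed by -0.27 and the lipoprotein receptor gene LpR1 by -0.28, neither with an unadjusted p under 0.05.

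The glycolysis and hypoxia list had a median of 0.10 over 15 genes, with Ald1, given above, and tgo, the fly ARNT protein that partners the hypoxia factor, as the 2 with an unadjusted p under 0.05. tgo read 7.95, 7.87 and 8.03 and 8.30, 8.18 and 8.37 (log2 difference 0.33, limma adjusted p = 0.197). List medians on the LacZ dsRNA arrays were -0.05, 0.17 and 0.19, with array 1 apart. The untreated arrays themselves spread over -0.09, -0.01 and 0.10, and the NELF dsRNA arrays over -0.18, 0.11 and 0.05.

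Stress and detoxification lists held no call. The counts that follow include dim genes. Only 30 of the 51 cytochrome P450 genes and 6 of the 22 UDP-glycosyltransferases were above the detection limit. Ugt307A1, counted as lower, lay below it on every array that measured it. Prx6c, counted as higher in antioxidant defence, had an untreated mean of 2.90. At an unadjusted limma p under 0.05 stood 2 genes higher and 1 lower of 17 for endoplasmic reticulum stress, 4 higher of 16 for antioxidant defence, 1 higher and 3 lower of 30 for glutathione S-transferases, 1 higher and 3 lower of 51 for cytochrome P450 genes and 3 lower of 22 for UDP-glycosyltransferases. PEK, the endoplasmic reticulum kinase that phosphorylates the initiation factor eIF2alpha, read 8.50, 8.46 and 8.47 and 9.17, 8.63 and 9.21 (log2 difference 0.52, SE 0.12, limma adjusted p = 0.122). LacZ dsRNA array 2 was nearest to the untreated level. The list median of 17 endoplasmic reticulum stress genes was -0.01. Gcn2, a second eIF2alpha kinase, differed by 0.27 with overlapping arrays. Of 17 amino acid and integrated stress genes, 2 were higher and 2 lower at an unadjusted limma p under 0.05. Ugt317A1, a UDP-glycosyltransferase, read 8.09, 7.96 and 7.94 and 7.36, 7.57 and 7.46 (log2 difference -0.54, limma adjusted p = 0.105) and 6.08, 6.35 and 6.28 in NELF dsRNA cells, where its difference from LacZ dsRNA was -1.22 (limma adjusted p = 7.31e-06). Irp-1A, an iron-regulatory protein, differed by 0.37 from untreated cells, and GstO1, an omega-class glutathione transferase, by -0.30. Of 16 metal homeostasis genes, Irp-1A among them, 1 was higher and 1 lower at an unadjusted limma p under 0.05. cnc, the fly Nrf2 factor, and its inhibitor Keap1 differed by 0.24 and 0.61, and neither passed (limma adjusted p = 0.374 and 0.453).

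Cell cycle lists were centred near 0, at 0.01 for 26 replication genes and -0.01 for 28 mitosis genes. At an unadjusted limma p under 0.05 stood 3 higher and 1 lower of the replication genes, and 3 higher and 2 lower of the mitosis genes. The genes with the smallest p in these lists were CycE, the G1/S cyclin, and pim, the fly securin. CycE read 8.19, 8.24 and 8.33 in untreated and 8.60, 8.60 and 8.59 in LacZ dsRNA cells (log2 difference 0.34, limma adjusted p = 0.14), and 8.36, 8.15 and 8.34 after NELF dsRNA. pim read 8.87, 8.90 and 8.83 and 9.39, 9.26 and 9.08 (log2 difference 0.38, limma adjusted p = 0.107), and 9.27, 9.27 and 9.38 after NELF dsRNA, a difference from untreated of 0.44 that passed (limma adjusted p = 0.00331).

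**Figure D4:**
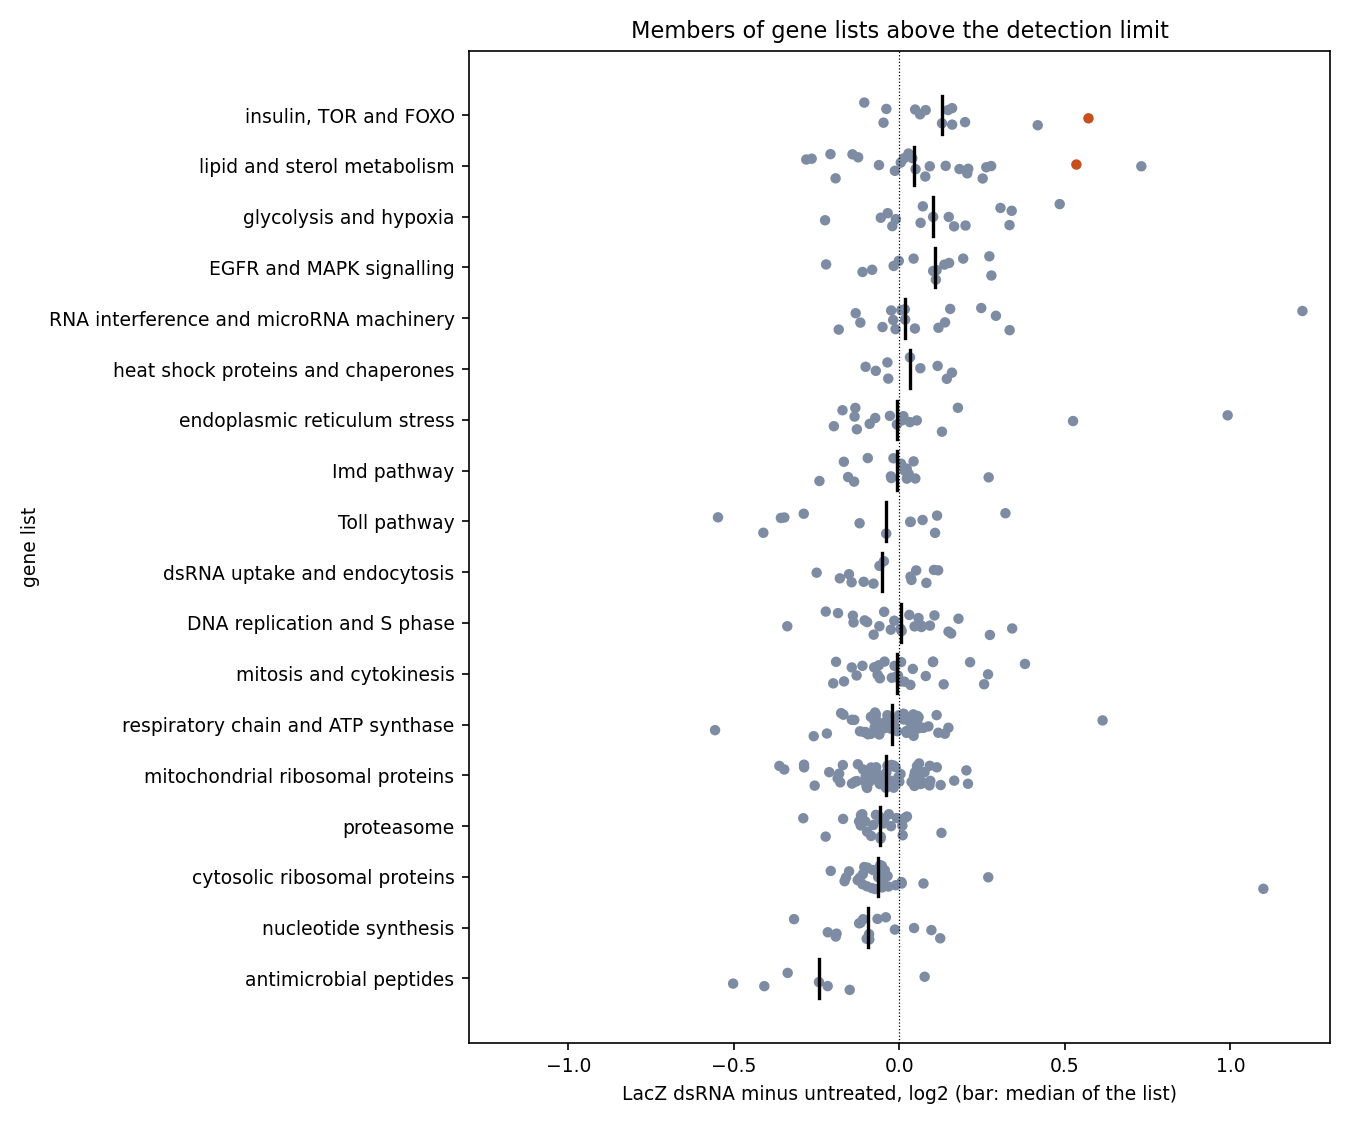
Log2 difference between LacZ dsRNA and untreated cells (x axis) for each gene above the detection limit in 18 lists (y axis), with black bars for list medians and orange points for the 2 genes that passed, Akt and schlank. Medians lie within 0.13 of 0 except for antimicrobial peptides; points are spread vertically only to separate them.

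Protein synthesis and turnover lists leaned below 0 by small amounts. Of 32 cytosolic ribosomal protein genes tested 27 were lower, with a median of -0.07, 6 with an unadjusted p under 0.05 lower and 1 higher, and none passing. RpL28 differed by -0.21, RpS21 by -0.17 and RpL36A by -0.16. The direction of this list depends on the scaling: under quantile normalization its median was 0.01. These genes are also among the brightest on the array. Of all 161 probe sets with an untreated mean above 12, 130 were lower, and their median was -0.07 as well. These 161 include 29 of the cytosolic ribosomal protein genes, 27 of them lower. The paralogs RpS19b, RpS10a and RpS5b, much dimmer than the other members, differed by 0.27, 0.07 and 1.10.

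Mitochondrial ribosomal proteins had 48 of 69 genes lower and a median of -0.04, with 7 lower and 2 higher at an unadjusted p under 0.05. mRpS35 read 9.82, 9.84 and 9.75 and 9.55, 9.45 and 9.33 (log2 difference -0.36, limma adjusted p = 0.108), and mRpL51 differed by -0.29. On LacZ dsRNA arrays 1, 2 and 3 the list median was 0.10, -0.07 and -0.15, so array 1 went against the other 2. The median difference was -0.11 without array 1 and 0.02 without array 3. Proteasome subunits had 22 of 30 lower and a median of -0.06, with 3 lower at an unadjusted p under 0.05. Rpt3, an ATPase of the 19S cap, read 10.42, 10.35 and 10.20 and 10.01, 10.06 and 10.02 (log2 difference -0.29, limma adjusted p = 0.11). Over the 26 proteasome genes above the detection limit, the medians on the LacZ dsRNA arrays were -0.03, -0.06 and -0.13. ATPsynbeta, the catalytic subunit of the mitochondrial ATP synthase, differed by -0.26 in its bright probe set (limma adjusted p = 0.155) and by 0.02 in the other, within a list of 67 respiratory genes whose median was -0.04. Of these 67, 1 was higher and 6 lower at an unadjusted limma p under 0.05. The respiratory median was -0.07 without LacZ dsRNA array 1 and 0.01 without array 3.

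**Figure D5:**
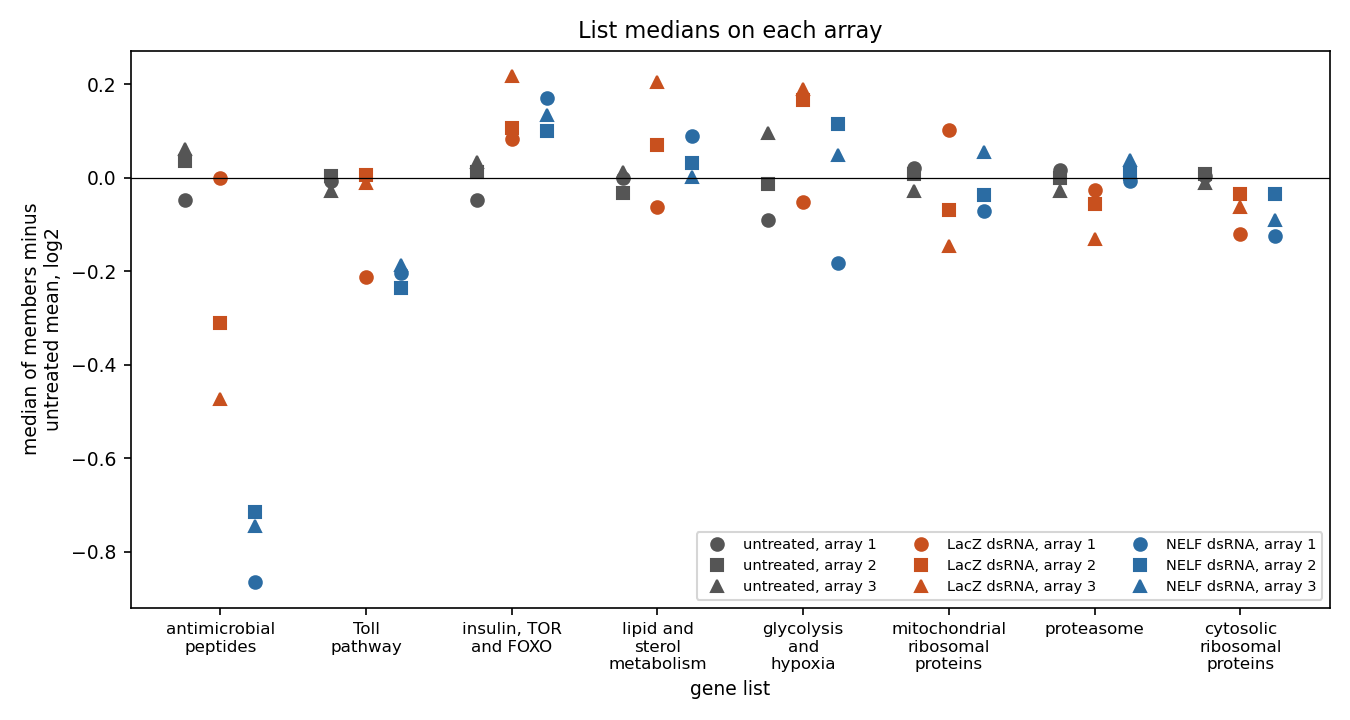
Median over list members above the detection limit of the log2 intensity minus the untreated mean (y axis), for 8 lists (x axis). Each of the 9 arrays is shown, coloured by group and shaped by array number. LacZ dsRNA array 1 lies apart from arrays 2 and 3 for antimicrobial peptides (0.00 against -0.31 and -0.47), Toll genes, glycolysis and mitochondrial ribosomal proteins.

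Extracellular matrix and blood cell genes held no call. Of 18 matrix genes 2 were higher and 5 lower at an unadjusted limma p under 0.05, against 11% of all genes, with a median of -0.01. With array weights, where 339 of all probe sets passed, Pxn, Glt, LanB2 and wb did, 3 lower and 1 higher. The higher one, wb, was dim: its untreated arrays read 1.96, 2.55 and 0.71, all below the detection limit. Pxn, a peroxidase that crosslinks basement membrane and a plasmatocyte marker, read 8.28, 8.25 and 8.02 in untreated and 7.35, 7.67 and 7.74 in LacZ dsRNA cells (log2 difference -0.60, SE 0.11, limma adjusted p = 0.0654). All LacZ dsRNA arrays were below all untreated arrays, and the gene missed the threshold. NELF dsRNA arrays read 8.55, 8.49 and 8.37, higher than LacZ dsRNA by 0.88 (limma adjusted p = 1.31e-04). Glt, glutactin of the basement membrane, differed by -0.42 and the laminin gene LanB2 by -0.22, with overlapping arrays. The collagen IV gene vkg differed by 0.95, but from an untreated mean of only 4.69. srp differed by 0.27 and Nplp2 by -0.17. Over the 17 plasmatocyte markers 2 were higher and 4 lower at an unadjusted p under 0.05, with a median of 0.03.

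Act79B, a muscle actin gene, read 7.02, 6.90 and 5.88 in untreated cells, 5.55, 5.85 and 5.81 after LacZ dsRNA and 7.61, 7.76 and 7.43 after NELF dsRNA. The LacZ dsRNA arrays were the lowest, although untreated array 3 lay close to them (log2 difference -0.86, SE 0.23, limma adjusted p = 0.196). rhea, the talin gene, differed by 0.32 (limma adjusted p = 0.177). Of 19 actin and adhesion genes tested, 2 were higher and 2 lower at an unadjusted limma p under 0.05.

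Reference genes held no call either, and 1 of 4 tested had an unadjusted limma p under 0.05. RpL32 differed by -0.05 (95% interval -0.16 to 0.07), betaTub56D by -0.05 (-0.17 to 0.08) and Gapdh1 by -0.01 (-0.14 to 0.12). Tbp, the TATA-binding protein gene, differed by -0.20 without overlap between the groups (limma adjusted p = 0.409). Ssrp, a subunit of the FACT elongation factor, differed by 0.23 from untreated after LacZ dsRNA (limma adjusted p = 0.206) and by 0.49 after NELF dsRNA (limma adjusted p = 1.14e-04). Of 16 NELF and elongation factor genes tested, 1 was higher and 0 lower after LacZ dsRNA at an unadjusted limma p under 0.05.

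LacZ dsRNA array 1 carried weight in these results. Without it 18 probe sets passed in place of 7, 14 higher and 4 lower. SpdS then no longer passed, while the other 6 called genes did. Those that passed in addition included Ald1, Rcc1, Usp10, Sulf1 and Desat1, named after their values were seen, with log2 differences of 0.55, 0.48, 0.44, 0.48 and 0.36. Without LacZ dsRNA array 3, on the other hand, 2 probe sets passed, and without array 2, 3 passed. Weighting each array by its fit to the model, which gave LacZ dsRNA array 2 a weight of 4.12 and array 1 a weight of 0.36, let 339 probe sets pass. CG32576 and stc passed in all 9 repeats that left out an array. Many list medians close to 0 changed sign without 1 of the LacZ dsRNA arrays. Among them were the Imd, endoplasmic reticulum stress, replication, mitosis, matrix and plasmatocyte lists. The lists of amino acid and integrated stress genes, aminoacyl tRNA synthetases, glutathione S-transferases and others did so too. The lipid and sterol median was 0.14 without array 1 and 0.01 without array 3.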

How the data were processed

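The 9 arrays were processed by the authors, who deposited 1 log2 intensity per probe set and array. Per the labels, data were read out with GeneChip Operating Software 1.2.0.037, and the series' design text adds an import into Rosetta Resolver 6.0. The log2 base was inferred from the values. Summarization, background correction, normalization and genome build were not given in the sources used here. No further normalization was applied. Empty cells (21.2% of 161091) were kept as missing. Of 17899 probe sets other than the 95 controls, 13086 had 1 gene, 389 several and 4424 were unnamed here, by the platform annotation, and 12988 of the named ones matched a RefSeq gene table. Probe sets with several genes stayed unnamed.

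Differences were fitted with limma 3.58.1 in R 4.3.3 (lmFit, eBayes with a variance trend) to all 9 arrays, 1 mean per group. A probe set was tested with at least 2 values in both groups, and p-values were adjusted by Benjamini-Hochberg at 0.05. The brightest probe set stands for a gene. The text names the called genes without overlap (up to 15 each way), up to 3 members per list by adjusted p, the NELF targets, reference genes, and other members for their role. The members and lists were chosen with earlier results of these data known. The procedure was tested on simulated data. Alternatives covered scaling, filters, weights, the variance trend, a replicate block and single arrays left out. Sequences and promoter motifs were not analysed here. The number of arrays limits the precision.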

Additional observations from a re-analysis of the deposited data

How the results depend on the processing

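All 7 called genes kept their direction under every alternative and every array left out. In place of 7 probe sets, 1 passed without the variance trend (CG32576), 339 with array weights (172 higher, 167 lower), 3 with at least 1.5-fold and, in alternatives chosen after seeing the data, 518 with weights from detected probe sets and 22 without the pair of arrays with the fewest measured probe sets (LacZ dsRNA 1 and NELF dsRNA 3). In the weighted fits LacZ dsRNA array 2 carried a weight of 4.12 or 5.32, so those counts lean on that array. Leaving out 1 array gave 2 to 18: 18 without LacZ dsRNA array 1, 2 without array 3, and 3 without LacZ dsRNA array 2, untreated array 2 or untreated array 3. Quantile normalization gave 10, median centring 7, only the 6 arrays compared 6, a floor at the 10th percentile 6, probe sets measured on all 6 arrays 7, and those above the detection limit 7. CG32576 passed in all 11 alternatives, stc, Akt, schlank and CG5913 in 9, Sgt in 8 and SpdS in 7. Over leave-one-out repeats CG32576 and stc passed in 9 of 9, schlank in 5, Akt, CG5913 and Sgt in 4 and SpdS in 1. The replicate block gave 9 calls. The numbers gave no clear pairing of LacZ dsRNA with untreated arrays: deviations of same-numbered arrays correlated at 0.03, -0.02 and 0.01. LacZ dsRNA arrays 1 and 3 correlated best with the untreated array of their own number, and array 2 with untreated array 3. Of 985 recomputed list medians 41 moved by over 1 SD. The other 146 named genes passed in 114 of 2878 repeats, 92 of them with array weights. Dim probe sets below 3.77 carry no reliable order, and which cause lies behind these shifts was not tested.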

Other observations

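Some probe sets crossed the detection limit between the groups. On all 3 LacZ dsRNA arrays but no untreated array, 22 of the 12974 probe sets tested lay above it, and 26 did the reverse. Their arrays are separate by the way they were chosen. Of all probe sets measured on all 6 arrays, 18.3% did not overlap. None of the probe sets that crossed the limit passed after adjustment, with smallest limma adjusted p of 0.0654 and 0.184. Zdhhc8, a palmitoyltransferase gene, read 3.55, 2.77 and 2.92 in untreated and 4.92, 4.55 and 5.14 in LacZ dsRNA cells, at least 2.14-fold higher with the untreated level set at the limit (limma adjusted p = 0.11). It read 5.18, 4.11 and 5.30 after NELF dsRNA. In the other direction Cyp4g1, a cytochrome P450 of hydrocarbon synthesis, read 4.08, 4.66 and 4.40 and 2.37, 3.50 and 2.97, at least 1.53-fold lower (limma adjusted p = 0.253), and 3.77, 4.32 and 4.39 after NELF dsRNA. Ets21C, a stress-induced transcription factor gene, read 4.27, 4.45 and 4.31 and 3.26, 2.20 and 3.43, at least 1.49-fold lower (limma adjusted p = 0.302). These genes were picked after their values were seen.

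Of the 17 probe sets that differed by at least 1 on the log2 scale with both means above the limit, CG32576 alone passed. In 11 of them the arrays did not overlap, 7 higher and 4 lower. Over all probe sets measured on all 6 arrays that share was 18.3%. The 17 were picked by their difference, which itself favours separate arrays. The genes below were also named after their values were seen. Nup160, a scaffold subunit of the nuclear pore, read 5.05, 5.28 and 5.02 in untreated and 6.20, 5.71 and 6.52 in LacZ dsRNA cells (limma adjusted p = 0.132), with 6.05 as its NELF dsRNA mean. ScsbetaG, a succinyl-CoA synthetase subunit gene, read 4.71, 5.68 and 5.90 and 3.04, 4.29 and 4.02 (limma adjusted p = 0.206). Hecw, a ubiquitin ligase gene, read 5.94, 5.66 and 6.29 and 3.70, 5.50 and 5.59, with LacZ dsRNA array 1 far below the others of its group (limma adjusted p = 0.371).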
